A study of Homo sapiens with 4 samples.

Results

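The unfolded protein response and its ATF4 arm were followed through 34 named genes, all of which have 1 row among the 58174 genes of the deposited table. They were matched by symbol, with no threshold on their values, from a list drawn up with earlier results of these data known, and fall into 16 genes around the transcription factor ATF4 and 18 genes of the endoplasmic reticulum (ER). RNA sequencing gave 4 libraries, 1 per group: H1299 with control siRNA (siCTR), H1299 with an siRNA against CDH3 (siCDH3), HCC827 with siCTR and HCC827 with siCDH3, all 48 h after transfection. H1299 cells come from a lymph node metastasis of a lung carcinoma, HCC827 is an EGFR-mutant lung adenocarcinoma line, and CDH3 encodes P-cadherin. The comparison asks how these genes differed after short-term silencing of CDH3 in each line. Silencing was transient, and with 1 library per group the differences within a line have no replicate check.

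When unfolded proteins build up in the ER, the membrane sensors IRE1 (ERN1), PERK (EIF2AK3) and ATF6 signal to the nucleus. IRE1 splices XBP1 mRNA and ATF6 is cut to release a transcription factor, and both raise chaperones and degradation factors of the ER. PERK and related kinases phosphorylate eIF2, which slows translation in general while favouring translation of ATF4, whose targets supply amino acids, dampen the response or promote cell death. Transcript levels do not show ATF4 protein or the spliced form of XBP1, because the deposited values are summed per gene.

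Values are TPM, a length-scaled level that sums to a fixed total in each library and keeps no read depth, so precision at low TPM is unknown. CDH3 stood at 173 TPM in HCC827 siCTR against 78.8 TPM in siCDH3, and at 1.21 against 0.169 TPM in H1299, where it was low before silencing. Of 6 epithelial markers, 6 reached 5 TPM in both HCC827 libraries and 3 in both H1299 libraries, where EPCAM was at 0.514 and 0.286 TPM and the mesenchymal filament gene VIM at 5149 and 5060 TPM. Of 10 hematopoietic and endothelial markers, 0 reached 5 TPM in any library, and of 5 fibroblast markers only COL1A1 did so, at 5.58 and 5.87 TPM in HCC827. Mitochondrially encoded genes took 13.5% and 16.4% of TPM in the siCTR and siCDH3 libraries of H1299, and 36.2% and 34.4% in those of HCC827.

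Promoter windows are described first, and a link between their motifs and the ratios that follow was not tested. RefSeq windows from 250 bases before to 50 bases after a start site (build GRCh38.p14) were found for 32 of the 34 genes, all but SHMT2 and PSPH. Both strands were searched for exact matches to 4 response elements, so near matches are not counted. The ER stress response element ERSE, spelled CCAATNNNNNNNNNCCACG, is bound by ATF6 with NF-Y. Its variant ERSE-II is spelled ATTGGNCCACG. UPRE is spelled TGACGTGG and is bound by XBP1 and ATF6. CARE, the element for C/EBP and ATF dimers, is spelled TGATGNAA. ERSE was in the windows of 6 of 18 ER genes (HSPA5, HSP90B1, CALR, PDIA6, XBP1 and CRELD2), against 25 of all 27305 genes with a window (0.0916%). ERSE-II was in the windows of 3 ER genes, HERPUD1, HYOU1 and SDF2L1, against 19 of all genes (0.0696%). CARE was in the windows of CHAC1, ASNS, ATF3, CEBPG and HERPUD1, against 4.46% of all genes, and UPRE was in that of HYOU1, where it overlapped an ERSE-II match, against 0.927%. None of the 14 ATF4 genes with a window held ERSE or ERSE-II. A match describes the letters and is not evidence of a bound site.

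The stretches with ERSE-II are printed because these 3 genes, picked out after their values were seen, were higher with siCDH3 in H1299 and lower in HCC827. Each is 5′ to 3′ on the strand of its gene and ends before the start site. Capitals mark the motif, and in HERPUD1 they mark first the CARE match and then ERSE-II. Nearer its start site, HERPUD1 also holds a lower-case run that differs from ERSE only in the last base and was not counted. HERPUD1 lies at chr16:56931892-56932141 on the plus strand, HYOU1 at chr11:119057250-119057309 on the minus strand and SDF2L1 at chr22:21642089-21642148 on the plus strand. HYOU1 held a second ERSE-II match, 185 bases before its start site, that lies outside the stretch printed.
HERPUD1: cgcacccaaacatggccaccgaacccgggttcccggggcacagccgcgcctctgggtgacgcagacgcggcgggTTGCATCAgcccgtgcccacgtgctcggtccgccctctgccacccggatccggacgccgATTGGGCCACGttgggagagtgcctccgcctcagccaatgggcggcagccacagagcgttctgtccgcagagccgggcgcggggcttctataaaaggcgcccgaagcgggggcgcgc
HYOU1: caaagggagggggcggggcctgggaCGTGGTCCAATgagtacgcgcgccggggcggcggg
SDF2L1: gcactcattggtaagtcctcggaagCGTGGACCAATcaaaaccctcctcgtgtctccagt

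Stretches of 4 genes with ERSE are given for comparison, since their ratios stayed near 0 or, in XBP1, were low in H1299. Capitals mark ERSE. HSPA5 lies at chr9:125241371-125241430 on the minus strand, HSP90B1 at chr12:103930300-103930359 and CALR at chr19:12938363-12938422 on the plus strand, and XBP1 at chr22:28800583-28800642 on the minus strand.
HSPA5: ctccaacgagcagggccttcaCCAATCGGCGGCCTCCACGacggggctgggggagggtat
HSP90B1: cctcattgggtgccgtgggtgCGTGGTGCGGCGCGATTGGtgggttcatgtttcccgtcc
CALR: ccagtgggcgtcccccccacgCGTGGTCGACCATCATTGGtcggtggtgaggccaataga
XBP1: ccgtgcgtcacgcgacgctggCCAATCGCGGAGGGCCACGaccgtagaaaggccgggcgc

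Among the ATF4 genes, CHAC1 had the largest ratio of all 34 genes, and its CARE match is shown beside that of ASNS, which moved little. Capitals mark CARE. CHAC1 lies at chr15:40953236-40953295 on the plus strand and ASNS at chr7:97872443-97872502 on the minus strand.
CHAC1: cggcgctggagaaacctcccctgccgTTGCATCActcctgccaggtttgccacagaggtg
ASNS: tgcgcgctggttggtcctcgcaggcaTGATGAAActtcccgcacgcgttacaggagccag

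Most of the 34 genes differed little between siCDH3 and siCTR. CHAC1 was higher in H1299 alone, TRIB3 was higher and DDIT3 lower in both lines, and HERPUD1 went in opposite directions. The log2 ratio of TPM + 1, siCDH3 over siCTR, was taken within each line for genes that reached 5 TPM in the siCTR or the siCDH3 library. All 34 genes passed this filter in both lines, CHAC1 in H1299 only through siCDH3 and EDEM1 in H1299 only through siCTR. In H1299, 1 of 34 (CHAC1) was higher by 2-fold or more and 0 lower by as much, where 0.878% and 1.58% of 11622 filtered genes were. In HCC827, 0 of 34 were past 2-fold in either direction, where 1.01% and 0.833% of 11043 genes were. At 1.5-fold, CHAC1 and HERPUD1 were higher and 0 lower in H1299 (3.21% and 7.11% of all genes), and TRIB3 was higher and HERPUD1 lower in HCC827 (3.35% and 2.54%). With a pseudocount of 0.1, TRIB3 also passed 2-fold in HCC827. These counts are small, and nothing is read from them about the list as a whole.

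**Figure D1:**
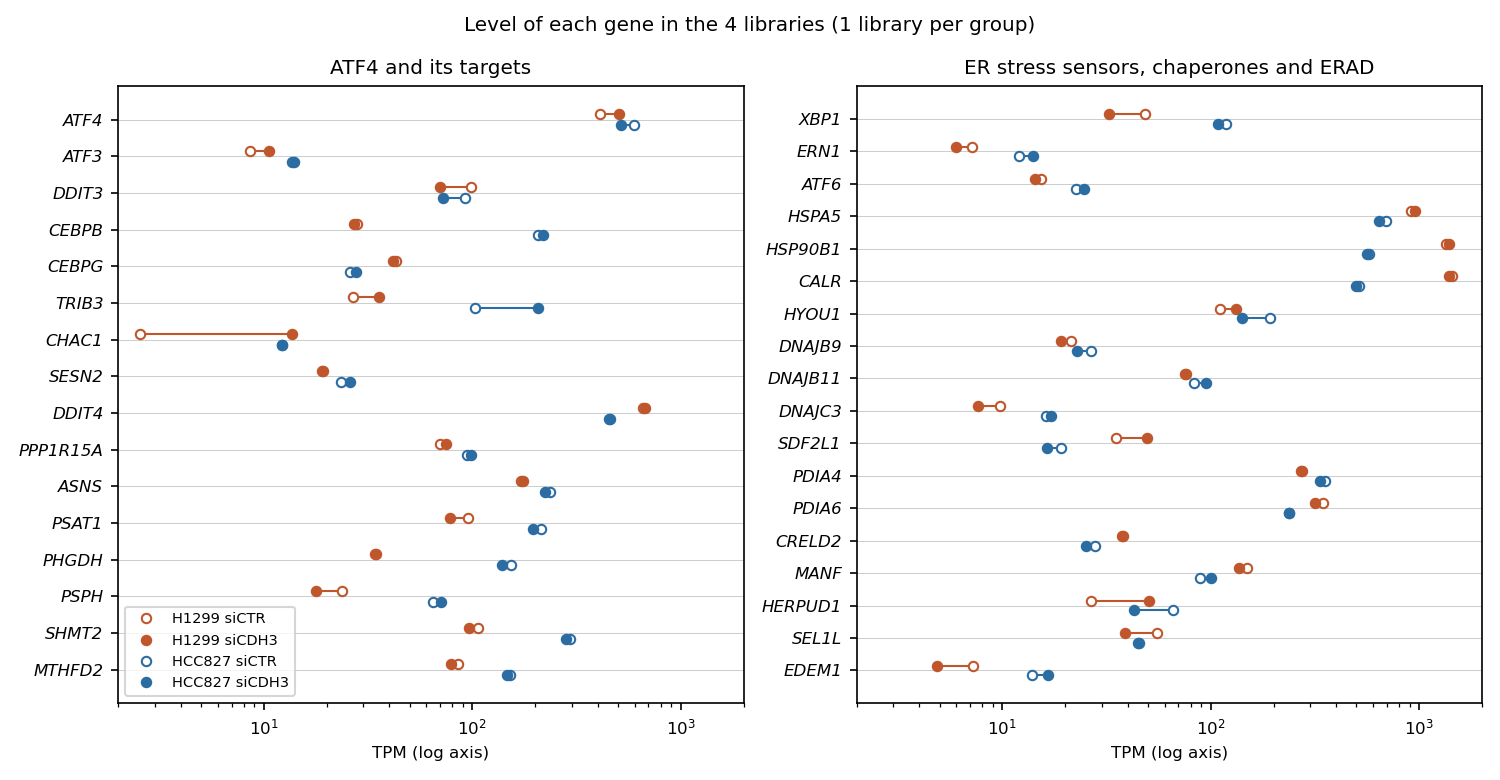
TPM (log axis) of each gene in the 4 libraries, ATF4 genes on the left and ER genes on the right. Open circles are siCTR and filled circles siCDH3, 1 library each. The longest lines join CHAC1 in H1299 (2.53 and 13.6 TPM) and TRIB3 in HCC827 (103 and 206 TPM), and for most other genes the circles of a line nearly touch.

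The summed level of each arm was close between the libraries of a line. The 16 ATF4 genes summed to 1887 TPM in H1299 siCTR and 1953 in H1299 siCDH3, and to 2734 and 2704 TPM in HCC827. The 18 ER genes summed to 4904 and 4920 TPM in H1299 and to 3099 and 2939 TPM in HCC827. The median log2 ratio of the ATF4 genes was -0.0049 in H1299 and 0.00099 in HCC827, and that of the ER genes was -0.06 and -0.04. Over all filtered genes the medians were -0.11 in H1299 and 0.03 in HCC827, so 22 of the 34 genes lay above the all-gene median in H1299 and 13 in HCC827.

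**Figure D2:**
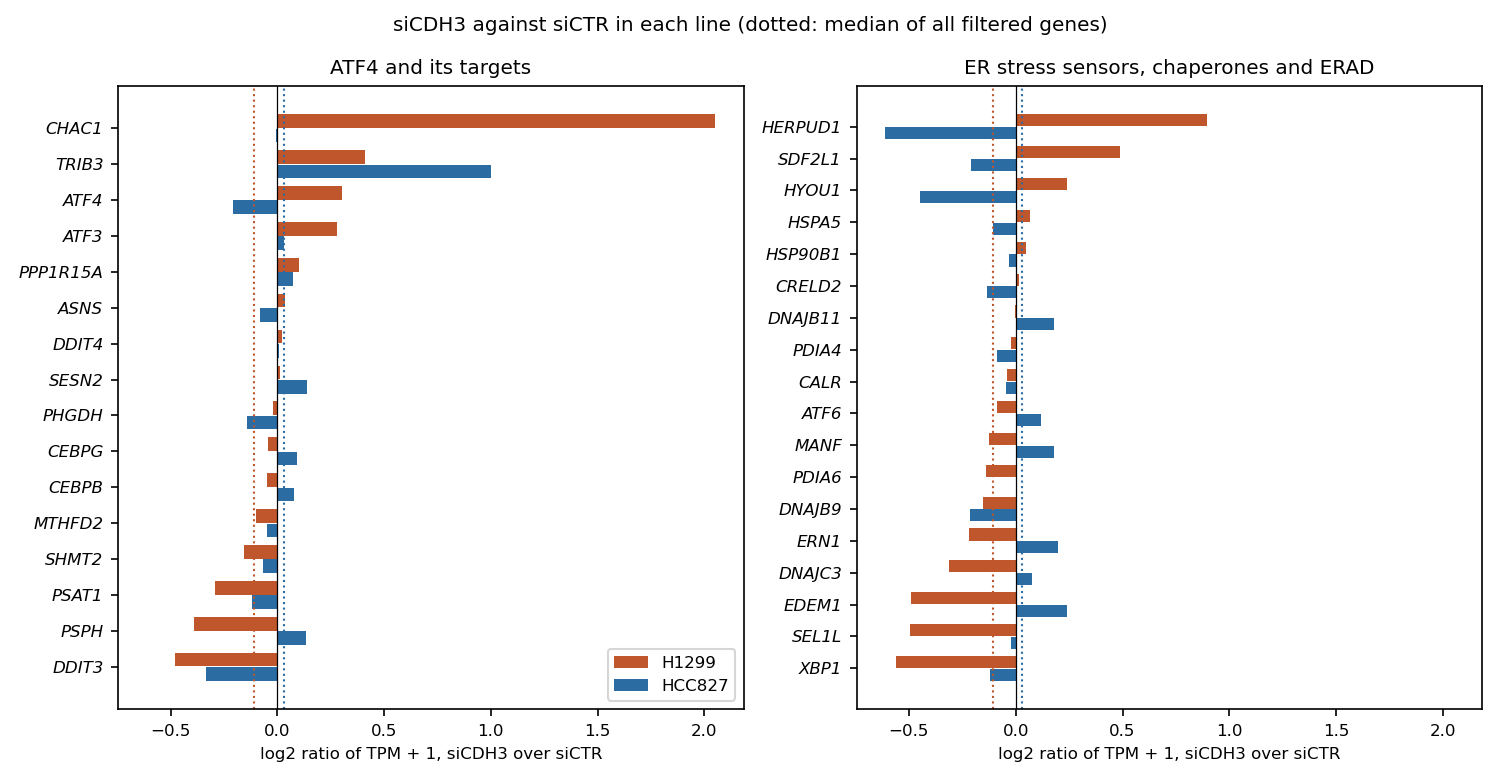
Log2 ratio of TPM + 1, siCDH3 over siCTR, of each gene in H1299 and HCC827, with dotted lines at the median of all filtered genes of each line. CHAC1 stands out in H1299 (2.05) and TRIB3 in HCC827 (0.999), and HERPUD1 points up in H1299 (0.90) and down in HCC827 (-0.61).

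The transcription factors of the ATF4 arm moved modestly. In siCTR and siCDH3, ATF4 itself stood at 412 and 508 TPM in H1299 and at 596 and 516 TPM in HCC827, so its log2 ratios of 0.30 and -0.21 point in opposite directions. DDIT3, which encodes the pro-apoptotic factor CHOP, had 98.1 and 70.1 TPM in H1299 and 91.8 and 72.7 in HCC827. Its log2 ratios of -0.48 and -0.33 were the lowest of the 16 ATF4 genes in both lines. Among all filtered genes, 1341 of 11622 had a lower ratio in H1299 and 756 of 11043 in HCC827. The exons of DDIT3 share 355 bases, 27.2% of their length, with MARS on the opposite strand, and without stated strandedness reads there cannot be assigned. MARS had 92.1 and 106 TPM in H1299 and was nearly level in HCC827, at 161 and 164 TPM. DDIT3 also shares 58 exon bases with MBD6 on the opposite strand. A further 105 are shared with AC022506.1 on the same strand, which has no row among the deposited genes.

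The stress-induced factor gene ATF3 (0.28 and 0.03), CEBPB (-0.05 and 0.08) and CEBPG (-0.04 and 0.09), which encode C/EBP partners of ATF4, had log2 ratios of at most 0.28 in size in either line. ATF3 was at 8.57 and 10.6 TPM in H1299, the lowest levels of the 5 factors there.

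Feedback and effector targets of ATF4 held the largest ratios. CHAC1, a glutathione-degrading enzyme, went from 2.53 TPM with siCTR to 13.6 TPM with siCDH3 in H1299 and stood at 12.3 and 12.2 TPM in HCC827. The H1299 control library is thus the low one, and the other 3 libraries lie within 1.5 TPM of each other. The log2 ratio in H1299 was 2.05, and 9 of 11622 filtered genes had a higher one, while that in HCC827 was -0.0042. It was 1.31 with a pseudocount of 5 and 2.38 with one of 0.1, since the control level is low. TRIB3, a pseudokinase that inhibits AKT and ATF4 itself, had 26.7 and 35.8 TPM in H1299 and 103 and 206 TPM in HCC827. It was higher in siCDH3 in both lines, with log2 ratios of 0.41 and 0.999. A higher ratio was found for 699 of 11622 genes in H1299 and 112 of 11043 in HCC827.

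The other effectors hardly moved. DDIT4, an inhibitor of mTORC1 and the most abundant gene of this group, had 662 and 672 TPM in H1299 and 453 and 455 TPM in HCC827. PPP1R15A, the regulatory subunit of the phosphatase that reverses eIF2 phosphorylation, had log2 ratios of 0.10 and 0.07, and SESN2, a leucine-responsive inhibitor of mTORC1, 0.01 and 0.14. In H1299 all 5 genes of this group had ratios above 0 and in HCC827 4 of 5 did, where 35.2% and 57.1% of all filtered genes were. Relative to the all-gene median, 5 of 5 lay above it in H1299 and 3 of 5 in HCC827. DDIT4 changed sign under 1 of 8 other settings in H1299 and 3 of 8 in HCC827. With a length and GC trend removed, described below and not among these 8, DDIT4 was at -0.02 in both lines.

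Amino acid and folate enzymes lay mostly just below 0. SHMT2, the mitochondrial serine hydroxymethyltransferase, had 107 and 96.0 TPM in H1299 and 294 and 281 TPM in HCC827, where it was the most abundant of the 6, with log2 ratios of -0.16 and -0.07. In H1299 the most abundant was ASNS, at 171 and 175 TPM. Of the 6 enzymes, 5 were below 0 in each line, with medians of -0.13 in H1299 and -0.07 in HCC827. In H1299 the median of all genes was itself -0.11, and 3 of the 6 lay below it, while 5 of 6 lay below that of HCC827. The serine synthesis genes PSPH (-0.39 and 0.13), PSAT1 (-0.29 and -0.12) and PHGDH (-0.02 and -0.14) did not move together. Asparagine synthetase (ASNS, 0.04 and -0.08) and the folate enzyme MTHFD2 (-0.10 and -0.05) stayed within 0.1 of 0. The CARE match printed above is therefore held by a gene with the largest ratio, CHAC1, and by one near 0, ASNS.

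Sensors and transducers of the ER were lower or near 0 in H1299. XBP1 went from 48.6 TPM with siCTR to 32.6 TPM with siCDH3 in H1299 and from 118 to 108 TPM in HCC827, log2 ratios of -0.56 and -0.12. In H1299 this was the lowest ratio of the 18 ER genes, and 923 of 11622 genes had a lower one. ERN1 went from 7.17 to 6.02 TPM in H1299 and from 12.1 to 14.0 TPM in HCC827, and ATF6 from 15.4 to 14.4 and from 22.6 to 24.6. Both were therefore lower in H1299 and higher in HCC827, with log2 ratios of at most 0.22 in size. ATF6 turned above 0 in H1299 under 2 of 7 other settings. With the length and GC trend removed, not among these 7, ATF6 was at 0.18 in H1299.

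The most abundant chaperones were steady. HSPA5, the HSP70 of the ER lumen also called BiP, had 911 and 954 TPM in H1299 and 690 and 641 TPM in HCC827, log2 ratios of 0.07 and -0.11. CALR, a lectin chaperone of glycoproteins, had 1434 and 1393 TPM in H1299 and 513 and 497 TPM in HCC827. HSP90B1, the HSP90 of the ER, had log2 ratios of 0.05 and -0.03. All 4 genes of this group were below 0 in HCC827, where 57.1% of all filtered genes were above 0, and the lowest was HYOU1 at -0.45.

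The genes with ERSE-II moved further than the chaperones with ERSE. HERPUD1, a membrane protein that organises ER-associated degradation, went from 26.7 TPM with siCTR to 50.6 TPM with siCDH3 in H1299 and from 65.9 to 42.8 TPM in HCC827. The order of the libraries was thus turned between the lines, with log2 ratios of 0.90 and -0.61. In H1299, 139 of 11622 genes had a higher ratio, and in HCC827 260 of 11043 had a lower one. HYOU1 and SDF2L1 are given in full after their values were seen, because they share the motif. HYOU1, a large HSP70-related chaperone that exchanges nucleotide on HSPA5, had 111 and 132 TPM in H1299 and 193 and 141 TPM in HCC827. SDF2L1, a partner of ER J-domain proteins, had 35.0 and 49.5 TPM in H1299 and 19.0 and 16.3 TPM in HCC827.

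All 3 genes were higher in H1299 siCDH3 and lower in HCC827 siCDH3. Of the 18 ER genes, HERPUD1, SDF2L1 and HYOU1 ranked 1, 2 and 3 from the top in H1299 (0.90, 0.49 and 0.24). From the bottom in HCC827, HERPUD1, HYOU1 and SDF2L1 ranked 1, 2 and 4 (-0.61, -0.45 and -0.21), with DNAJB9 at -0.22 between the last 2. Of the 6 genes with ERSE, 5 had log2 ratios of at most 0.14 in size in both lines, and XBP1 was the exception in H1299. The motif was compared with ratios already known, so this is a description with no test. Other genes with ERSE-II did not share the pattern: of 9 such genes measured in H1299, 3 were above 0 and 6 below (median -0.21), and of 11 in HCC827, 5 were above and 6 below (median -0.10). ZNF143 (0.82 and -0.34) and RAD9A (0.43 and -0.17) were the only ones of them higher in H1299 and lower in HCC827, and were picked out after their values were seen.

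**Figure D3:**
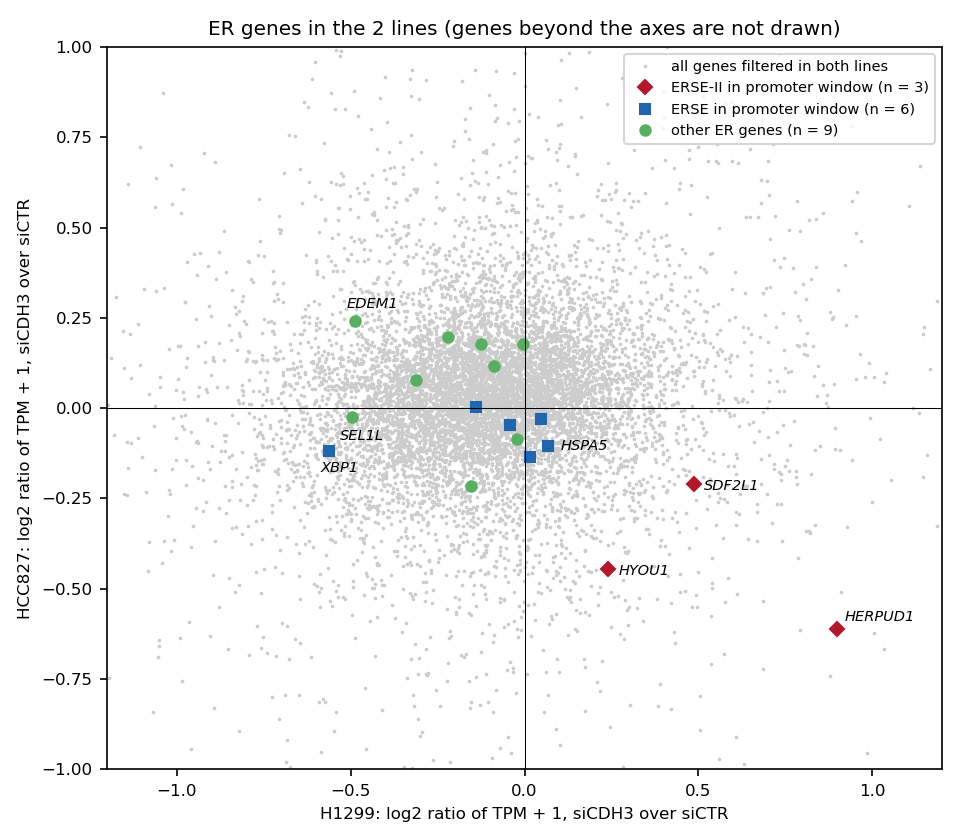
Log2 ratio of TPM + 1, siCDH3 over siCTR, in H1299 (horizontal) and HCC827 (vertical) for the 18 ER genes over all genes filtered in both lines (grey). The ER genes are marked by exact motif matches in their promoter window. HERPUD1 (0.90 and -0.61), HYOU1 (0.24 and -0.45) and SDF2L1 (0.49 and -0.21) lie at the lower right, and the genes with ERSE lie near 0 apart from XBP1 (-0.56 and -0.12).

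Among the remaining ER genes, DNAJB11, an HSPA5 co-chaperone and the most abundant of the J-domain group, had 75.7 and 75.4 TPM in H1299 and 83.5 and 94.6 TPM in HCC827. DNAJB9 (-0.15 and -0.22) and DNAJC3 (-0.31 and 0.08) assist HSPA5 and restrain IRE1 and PERK in turn, and both were lower in H1299. With the length and GC trend removed, DNAJB9 was at 0.07 and DNAJC3 at -0.04 in H1299. PDIA4, a disulfide isomerase, had 275 and 271 TPM in H1299 and 354 and 334 TPM in HCC827. PDIA6 (-0.14 and 0.0024) and the secreted ER proteins MANF (-0.12 and 0.18) and CRELD2 (0.02 and -0.14) also stayed below 0.2 in size. In degradation, SEL1L, the adaptor of the HRD1 ubiquitin ligase, had log2 ratios of -0.50 and -0.02, and EDEM1, which trims mannose from misfolded glycoproteins, -0.49 and 0.24. HERPUD1 and these 2 genes, whose products all serve degradation, therefore moved in opposite directions within H1299.

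Across the 18 ER genes the ratios of the lines ran against each other, with Pearson's r of -0.70 and Spearman's rho of -0.54. Across the 16 ATF4 genes they were 0.18 and 0.20, and across 9724 genes filtered in both lines 0.13 and 0.09. Genes of a library share its normalization and are not independent, and the lines share no library, so these values are descriptions. Of the ER genes, 6 were above 0 in H1299 and below 0 in HCC827, 7 the reverse, 5 below in both and 0 above in both. Of the 9724 genes, the same classes held 1325, 3498, 2879 and 2022. The share above 0 in H1299 and below 0 in HCC827 was 33.3% of ER genes, 18.8% of ATF4 genes and 13.6% of all genes. Taken relative to the all-gene median of each line, since that of H1299 was itself below 0, these shares were 44.4%, 37.5% and 23.8%. HERPUD1 was the only one of the 34 past 0.5 in size in opposite directions, as were 1.03% of all genes. The difference between the lines could not be tested, because no residual degree of freedom is left for it.

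Transcript length and GC content moved with the ratios in H1299. Over all filtered genes, Spearman's rho of the ratio was 0.40 with GC content and -0.26 with length in H1299, and 0.02 and 0.03 in HCC827. Across the 18 ER genes it was 0.51 and -0.28 in H1299, and -0.40 and 0.43 in HCC827. Across the 16 ATF4 genes it was 0.44 and -0.1 in H1299, and 0.39 and 0.29 in HCC827. Both ER values thus changed sign between the lines, and a link to the opposed ER ratios was not tested. SDF2L1 is short and GC-rich (865 bases, 65.5% GC) and SEL1L is long and GC-poor (7925 bases, 39.4% GC). With a trend on both removed, HERPUD1 was at 1.01 in H1299 and -0.65 in HCC827, SDF2L1 at 0.35 and -0.21, and HYOU1 at 0.29 and -0.49. They then ranked 1, 2 and 4 from the top of the ER genes in H1299, DNAJB11 coming before HYOU1, and 1, 4 and 2 from the bottom in HCC827. CHAC1 was at 1.98 in H1299. XBP1, SEL1L and EDEM1 came closer to 0 in H1299, at -0.37, -0.19 and -0.29, a change of more than 1.5 times in each.

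Over both lines together, no gene of the list passed a test of siCDH3 against siCTR. limma on log2(TPM + 1) with cell line as a block called 0 of 34 genes at an adjusted p under 0.05 and 1 of 12941 genes in all (0.00773%). Without adjustment, 2 of the 34 had a p under 0.05 in limma, as had 581 of all genes. TRIB3 was higher by 0.70 (SE 0.20, unadjusted p = 0.0195, Benjamini-Hochberg adjusted p = 0.950 in limma, higher in 2 of 2 lines). DDIT3 was lower, at -0.41 (SE 0.15, unadjusted p = 0.0487, adjusted p = 0.950 in limma, lower in 2 of 2 lines). Of 9724 genes filtered in both lines, 2022 had ratios above 0 in both and 2879 below 0 in both. With 1 library per line and siRNA, the error term is how far H1299 and HCC827 differed in response, and a p above the threshold does not show that a gene is unaffected.

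The lines themselves differed much more than the siRNAs did. In the same limma fit the cell line term compares the 2 libraries of HCC827 with the 2 of H1299. Its p-values set that difference against how far the siRNA responses of these 2 lines differed, and hold no replicate spread within a line. Of the 34 genes, 12 were higher and 9 lower in HCC827, where 21.5% and 41.3% of 12941 genes were. The median difference over all genes was -0.31, and mitochondrial transcripts took a larger share of TPM in HCC827. With each library scaled over nuclear genes alone, the split of the 34 became 21 higher and 3 lower, where 4647 and 3822 of 13771 genes were. With medians set equal it was 19 and 3, where 3658 and 4449 of 12941 genes were, so the split of all genes moved toward higher too. Calls are therefore given with those that held under nuclear scaling, median centring and quantile normalization.

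Serine and folate enzymes were higher in HCC827. In limma, 5 of the 6 enzymes passed and held under all 3 scalings: PHGDH, the first enzyme of serine synthesis (log2 difference 2.06, SE 0.15, adjusted p = 0.000445), PSPH (1.67), SHMT2 (1.496), PSAT1 (1.24) and MTHFD2 (0.85). ASNS, at 0.41 with an adjusted p of 0.0709 in limma, did not pass as deposited and did under each of the 3 scalings. PHGDH was at 34.6 and 34.1 TPM in H1299 and at 154 and 139 TPM in HCC827, so the lines did not overlap. All 5 calls also held in each of 4 fits that left out 1 library.

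CEBPB was higher by 2.91 in HCC827 (SE 0.15, adjusted p = 0.000176 in limma), from 27.9 and 27.0 TPM in H1299 to 207 and 219 TPM in HCC827. TRIB3 was higher by 2.20 and held under all 3 scalings. DDIT4 (-0.55) and CEBPG (-0.65) were lower as deposited and passed under 0 of 3 scalings. For ATF4 the difference was 0.28 (adjusted p = 0.258 in limma), and it passed under 2 of 3 scalings. DDIT3, at -0.02, turned above 0 under each of the 3 scalings and passed in none.

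The sensors and transducers of the list, which lacks PERK, were higher in HCC827, while chaperones differed among themselves. XBP1 (1.48, SE 0.18, adjusted p = 0.00223 in limma), ERN1 (0.89) and ATF6 (0.63) passed and held under all 3 scalings, as did EDEM1 (1.22) and DNAJC3 (0.87). CALR (-1.48, SE 0.15, adjusted p = 0.00120 in limma), HSP90B1 (-1.26) and SDF2L1 (-1.20) were lower and held. HSPA5 (-0.49), PDIA6, CRELD2 and MANF passed as deposited and under 0 of 3 scalings, and HSPA5 changed sign under quantile normalization. PDIA4 (0.33), DNAJB9 (0.29) and DNAJB11 (0.23) did not pass as deposited and were higher under all 3 scalings, and HYOU1 (0.44) under 2 of 3. Of all 21 calls among the 34 genes, 8 held in every fit that left out 1 library: CEBPB, PHGDH, PSPH, SHMT2, PSAT1, MTHFD2, CALR and HSP90B1. Without the siCTR or without the siCDH3 library of HCC827, fewer genes passed, among the 34 and among all genes alike. How many calls of all genes held in every such fit was not counted.

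**Figure D4:**
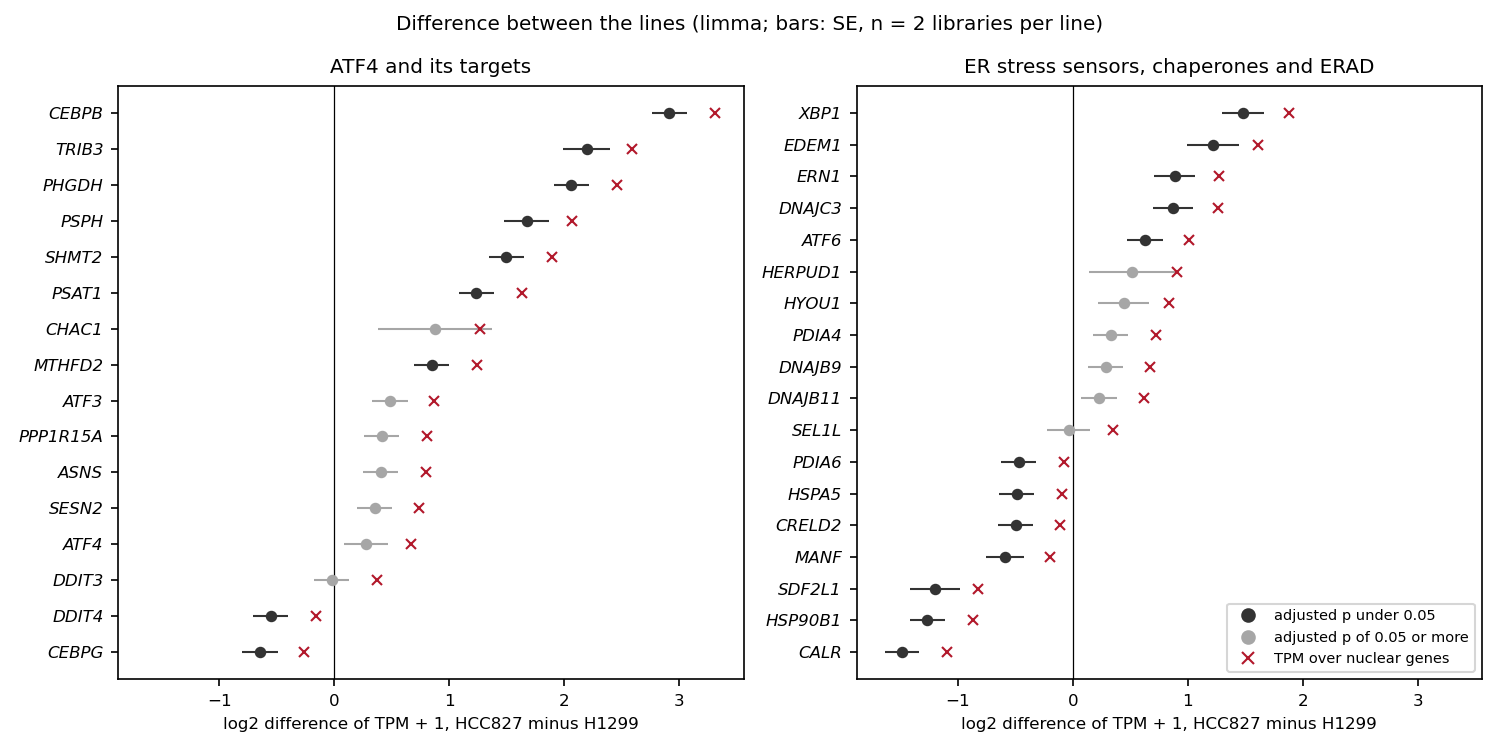
Log2 difference of TPM + 1 between the lines, HCC827 minus H1299, with SE (limma, 2 libraries per line); dark circles passed an adjusted p of 0.05, grey circles did not, and crosses give the difference with TPM over nuclear genes. Crosses lie to the right of the circles throughout. CALR (-1.48), HSP90B1 (-1.26) and SDF2L1 (-1.20) were below 0 and passed on both scales. CEBPG, DDIT4, MANF, CRELD2, HSPA5 and PDIA6 were below 0 on both scales but did not pass over nuclear genes.

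Other genes of the pathway were taken from 9 lists of 156 genes. Of all filtered genes, 35.2% had ratios above 0 in H1299 and 57.1% in HCC827, and the counts below are to be read against these shares. Aminoacyl-tRNA synthetases, many of them ATF4 targets, had 6 of 20 above 0 in H1299 (median -0.08) and 12 of 20 in HCC827 (median 0.05), with 0 of 20 past 2-fold in either line. DARS moved apart, with 218 and 171 TPM in H1299 and 84.6 and 133 TPM in HCC827. Of the other ATF4 and DDIT3 targets, 4 of 17 measured were above 0 in H1299 (median -0.15) and 13 of 18 in HCC827 (median 0.17). GPT2, the mitochondrial alanine aminotransferase, was past 2-fold in HCC827, at 41.8 and 86.9 TPM, and at 13.2 and 11.6 TPM in H1299. The stress cytokine gene GDF15 was higher in both lines, with 177 and 219 TPM in H1299 and 547 and 620 TPM in HCC827. None of the 17 passed 1.5-fold in H1299, unlike CHAC1.

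Amino acid transporters had 2 of 8 measured genes above 0 in H1299 (median -0.13) and 6 of 9 in HCC827 (median 0.05). The glutamine transporter gene SLC1A5 had 68.7 and 41.0 TPM in H1299 and 165 and 195 TPM in HCC827. Other serine and folate enzymes had 1 of 8 above 0 in H1299 (median -0.18) and 3 of 7 in HCC827 (median -0.06). Genes of the eIF2 kinases, eIF2 and eIF2B had medians of -0.08 in H1299 and 0.01 in HCC827 over 14 genes, and 0 of them passed 1.5-fold in either line.

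Other ER chaperones and oxidoreductases had 8 of 22 above 0 in H1299 (median -0.15) and 9 of 21 in HCC827 (median -0.02). The reductase gene DNAJC10 had 28.02 and 15.8 TPM in H1299 and 22.5 and 29.1 TPM in HCC827. Other degradation genes had 5 of 21 above 0 in H1299 (median -0.21) and 15 of 21 in HCC827 (median 0.06), and 8 and 12 of the 21 lay above the all-gene median, while HERPUD1 was above it in H1299 and below it in HCC827. Translocon and signal peptide genes had medians of -0.05 over 24 genes in H1299 and -0.02 over 23 in HCC827. SRP9, of the signal recognition particle, was the only filtered gene of these lists past 2-fold in H1299, at 165 and 47.6 TPM, and went the other way in HCC827, at 97.9 and 183 TPM. Other transducers had 3 of 10 above 0 in H1299 (median -0.17) and 7 of 10 in HCC827 (median 0.08), with the ER membrane protein gene WFS1 at -0.60 and 0.25.

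Some of the 34 genes share exon sequence with neighbours. Under GENCODE 29, 14 of them share exon bases with another gene, 8 of these with a protein-coding one. CHAC1, TRIB3, HERPUD1, SDF2L1 and XBP1 share none. HYOU1 shares 666 bases with an antisense gene that stood at or below 0.61 TPM in every library. A further 21 genes carry the name of a listed gene followed by P and a number, as pseudogenes are named. Of these, 0 reached 5 TPM, the highest being ATF4P3 at 2.96 TPM.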

How the data were processed

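Total RNA of 4 cultures of established lung cancer cell lines was sequenced, and the authors deposited 1 table of TPM values, with a column for each library and 58174 genes in rows, per the file headers. The submitters' processing notes name the genome build hg19. How reads were aligned and counted, on which strand and to what depth is not given in the sources used here, so no counting interval or detection floor is given. TPM is relative within a library and keeps no depth.

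The 34 members, their grouping, the other gene lists and the tests were chosen with earlier results of these data known. Log2 ratios used a pseudocount of 1, which understates changes of low genes, and a filter of 5 TPM in at least 1 library of the line. With 1 library per group no test was made within a line, and a size rule of 2-fold was counted beside all filtered genes. Over both lines, all 12941 genes that reached 5 TPM in any library entered 1 limma fit (limma 3.58.1 under R 4.3.3) on the same log2 scale, with terms for cell line and siRNA, and Benjamini-Hochberg adjustment over all of them. Libraries are paired by the line named in their labels. The fit was also run on simulated data with independent noise and the same siRNA effect in both lines. That setting lacks a response that differs between lines, so it does not check the error term met here.

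Full values are given for ATF4, DDIT3, XBP1, HSPA5, any gene whose log2 ratio reached 0.5 in size in either line and the gene of each role with the highest TPM in any library, and up to 3 genes per list and line with the largest ratios. Other names are given by single values. Motifs were searched in RefSeq promoter windows (GRCh38.p14), and gene overlaps, length and GC content come from GENCODE 29, which holds 57836 of the 58174 gene identifiers. The settings varied were the pseudocount (0.1 and 5), the filter (none, TPM 1 or TPM 20), the scaling (centred medians, nuclear genes only, quantiles), the size rule (1.5-fold and 4-fold), means in place of medians, limma with trend, without the block and without each library, and, added after the data were examined, removal of a length and GC trend.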

Additional observations from a re-analysis of the deposited data

Results flagged for a closer look

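HERPUD1 moved in opposite directions in the lines, with a log2 ratio of siCDH3 over siCTR of 0.90 in H1299 and -0.61 in HCC827, each from 1 library per group. The difference between the lines was not tested. Only genes of the list at least 0.5 in size in both lines were considered, and HERPUD1 was the 1 gene of 34.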

How the results depend on the processing

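Depth is unknown for TPM, so the error of low genes such as CHAC1 in H1299 siCTR cannot be given. The count of genes at least 2-fold higher in H1299 (1) became 0 with a filter at TPM 20, which removes CHAC1, and 2 with medians set to 0, with quantile normalization, with a 1.5-fold rule and with the length and GC trend removed. In HCC827 the count higher (0) became 1 with a pseudocount of 0.1 or a 1.5-fold rule, and the count lower (0) became 1 with a 1.5-fold rule. In H1299 the median log2 ratio of the ATF4 genes was 0.10 with medians set to 0 and 0.11 as a mean over genes, and that of the ER genes was 0.043 with medians set to 0. For siRNA over both lines, limma called 0 of 34 genes in every setting run, and 0 or 1 of all genes. Without the block, the difference between the lines enters the error. The SE of TRIB3 was then 1.21 against 0.20, so fits without the block could hardly call a gene. For cell line, no filter left 0 calls (0 higher, 0 lower), and genes of the list with an unadjusted p under 0.05 in limma went from 24 to 13. The 12 higher calls became 19 with centred medians and 21 over nuclear genes or with quantile normalization. The 9 lower calls became 5 with a pseudocount of 0.1 and 3 in each of those 3 scalings. Over all genes 2787 were higher and 5351 lower, against 3658 and 4449, 4647 and 3822, and 3796 and 4265 in the same 3 fits. Leaving out 1 library, without the block, gave 9 to 21 calls, 7 to 14 higher and 2 to 7 lower, the fewest without either HCC827 library, and the lone library of a line is then assumed to vary like the others. With no replicate block the cell line calls were 15 higher and 9 lower, where 2829 and 5411 of 12941 genes were. The difference of HSPA5 between the lines changed sign with quantile normalization, at 0.091. Among all genes, 102 were past 2-fold higher and 184 lower in H1299, against 47 and 91 with a pseudocount of 5, 228 and 308 with a filter at TPM 1 or none, and 43 and 108 with one at TPM 20. The counts in HCC827 were 111 and 92, against 53 and 46, 193 and 180, and 50 and 48. The cause was not tested where no construction is named.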
